A study of Mus musculus with 15 samples.

Results

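The genes described here are Mgp, which encodes matrix Gla protein, and the small leucine-rich proteoglycans Dcn (decorin), Bgn (biglycan), Aspn (asporin), Lum (lumican), Fmod (fibromodulin), Prelp (prolargin), Ogn (osteoglycin, also called mimecan) and Omd (osteomodulin). They were chosen by name. Mgp was picked for its high level in cells given angiotensin II together with cilengitide, so its values in every contrast that holds that group are a description without a test. Of the 9 genes listed, 8 have a row among the 14337 genes of the expression table. Omd has none. All 8 passed the filter on low values and were among the 12848 genes tested.

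RNA-Seq was performed on primary mouse cardiomyocytes isolated from whole hearts of C57/BL6 wild-type pups aged 1 to 3 days. All cells were incubated for 5 days, held for 24 h in medium with 0.5% serum, treated from day 6 with a repeat the next day, and harvested after 8 days. The 15 libraries comprised 3 saline controls (S1, S2 and S3), 4 with 1 µM angiotensin II (AngII; S5 to S8), 4 with 20 nM cilengitide (low-dose cilengitide, ldCil; S9 to S12) and 4 with both agents (AngII + ldCil; S13 to S16). AngII is a peptide hormone that drives hypertrophy of cardiomyocytes, and cilengitide is a cyclic peptide developed as an inhibitor of the integrins αvβ3 and αvβ5. The authors state that at low doses it is not an antagonist of αvβ3 but changes the signalling of this integrin. The labels do not say that the libraries of a group came from separate cultures, so the p-values below measure the spread between libraries, which may be partly technical.

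Matrix Gla protein is a small secreted protein whose glutamate residues are carboxylated by a vitamin K-dependent enzyme, and it is known as an inhibitor of calcification in arteries and cartilage. The small leucine-rich proteoglycans are secreted proteins built around leucine-rich repeats. They bind collagen fibrils and set their diameter and spacing, and several of them also bind growth factors such as TGF-β. In the heart they are made mainly by fibroblasts and other stromal cells rather than by cardiomyocytes.

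The values are log2 RPKM (reads per kilobase of transcript in a library of fixed size), which the authors had passed through conditional quantile normalisation. They are per length, so levels of different genes can be set side by side. The 75th percentile of the values was 4.93 and the median 3.59 in every library, so the upper and middle values have been brought to a common distribution. Differences between genes and libraries are relative to it. The low ends were not alike. The lowest value lay between −3.39 and −2.82 in S6, S7, S8, S11, S12, S15 and S16, and between −6.48 and −4.31 in the other libraries. Markers of several cell types were present together. The mean log2 RPKM over the 15 libraries was 11.99 for Nppa and 11.69 for Actc1, which mark cardiomyocytes, 9.81 for Col1a1 and 9.96 for Vim, which mark fibroblasts, and 10.11 for Acta2, a smooth muscle and myofibroblast actin. The cultures therefore held stromal transcripts at levels close to those of Bgn, and in bulk RNA fewer cells of a type cannot be told apart from less RNA per cell.

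The libraries stood apart in a way that crossed the treatments. The first principal component, computed from the 12840 tested genes that are not members, held 49.0% of the variance, and 23.5% of the variance of its score lay between treatment groups. Its score was highest in S5 (AngII), S9 and S10 (ldCil) and S1 and S3 (control), between 37.1 and 47.9, and lowest in S6 and S7 (AngII), S11 and S12 (ldCil) and S15 (AngII + ldCil), between −42.0 and −37.9. S2 scored 14.01, S14 5.16, S13 4.50, S8 −9.81 and S16 −24.6. The libraries with negative scores were those whose lowest value lay between −3.39 and −2.82, and every control was on the other side. The part of this difference in the low end of the values was not tested. A list of 22 tested interferon-response genes moved with this score: its mean deviation from the average library lay between 2.13 and 2.74 log2 units in the 5 highest-scoring libraries, was 0.44 in S2, and lay between −1.91 and −0.50 in the other 9. No control library was among the 5 lowest-scoring ones. The libraries S5 and S16 had the lowest levels of Bgn and Prelp of all 15.

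The members spanned a wide range of levels. Bgn had the highest level of the 8 members and Aspn the lowest in 15 of 15 libraries. Mean log2 RPKM over the 15 libraries was 9.40 for Bgn, 6.64 for Dcn, 6.21 for Prelp, 5.53 for Mgp, 4.30 for Ogn, 3.84 for Lum, 3.50 for Fmod and 0.65 for Aspn. Bgn stood above 99.5% of all genes tested by mean level, and Aspn above only 5.27%. The order of Mgp and Dcn was not fixed. Mgp was above Dcn in 7 libraries and below it in 8, and the difference Mgp minus Dcn went from −5.67 log2 units in S1 to 2.63 in S16.

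The members also differed in how much they varied. Between the lowest and the highest library, Dcn differed 42.0-fold, Aspn 23.6-fold and Mgp 20.7-fold. The corresponding ranges were 8.40-fold for Prelp, 7.14-fold for Fmod, 5.42-fold for Ogn, 4.51-fold for Lum and 2.59-fold for Bgn. The SD within treatment groups was 1.61 log2 units for Dcn, 1.22 for Aspn, 1.00 for Fmod and 1.00 for Mgp, against a median of 0.29 over all genes tested. That of Dcn exceeded the within-group SD of 99.4% of all genes tested, and that of Bgn, 0.42, exceeded 73.3%. Treatment groups held 54.6% of the variance of Mgp, 36.6% of that of Aspn, 31.7% of that of Dcn and 3.59% of that of Prelp, with a median of 18.3% over all genes. Mgp was chosen for its level in the AngII + ldCil group, so nothing is read from its share.

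**Figure D1:**
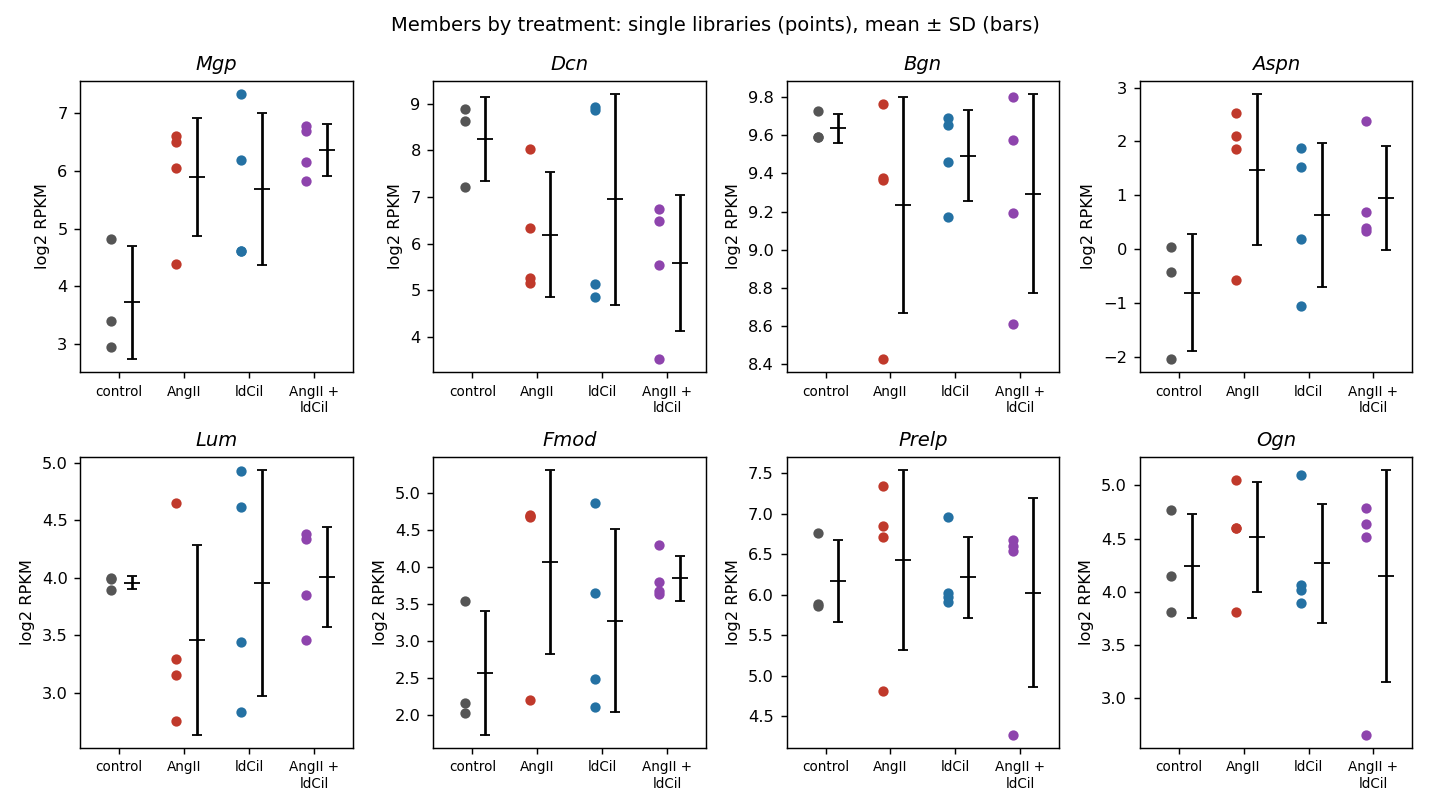
Log2 RPKM of the 8 members in each library (points) with the group mean ± SD beside them (bars), for 3 control, 4 AngII, 4 ldCil and 4 AngII + ldCil libraries. The vertical scales differ between genes: Mgp points with AngII + ldCil (5.83 to 6.78) lie above all control points (2.95 to 4.83), Dcn points (3.53 to 6.75) lie below all control points (7.20 to 8.88), and the groups of Lum, Ogn, Bgn and Prelp overlap.

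Several members lie next to each other in the genome, in the GRCm38 build. Dcn (chr10:97479609-97518143, plus strand) and Lum (chr10:97565128-97572703, plus strand) are separated by 46984 bases. Aspn (chr13:49544443-49567565, plus strand), Omd and Ogn (chr13:49608046-49624501, plus strand) follow each other on chromosome 13, after Ecm2, with gaps of 14896 and 15223 bases. Prelp (chr1:133910304-133921414, minus strand) and Fmod (chr1:134037254-134048277, plus strand) are separated by 115839 bases. Mgp (chr6:136872435-136875823, minus strand) and Bgn (chrX:73483602-73495933, plus strand) lie alone. Cenpp, a centromere protein gene on the opposite strand, spans Aspn, Omd and Ogn and shares 7 exon bases with Aspn and 0 with Ogn. The antisense gene Gm15851 shares 350 exon bases with Prelp. Strandedness is not given in the sources used here, so reads from Prelp and from this antisense gene may not be separable.

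RefSeq start-site sequences (GRCm38.p6) were matched for Prelp, Fmod, Aspn, Omd, Ogn and Bgn. The 250 bases before the annotated start are shown for 3 of them, because Fmod and Aspn varied together across the libraries, as described further on, while Bgn had the highest level and the smallest range. Capitals mark matches to the motifs searched, on either strand.
Fmod, chr1:134037004-134037253, plus strand: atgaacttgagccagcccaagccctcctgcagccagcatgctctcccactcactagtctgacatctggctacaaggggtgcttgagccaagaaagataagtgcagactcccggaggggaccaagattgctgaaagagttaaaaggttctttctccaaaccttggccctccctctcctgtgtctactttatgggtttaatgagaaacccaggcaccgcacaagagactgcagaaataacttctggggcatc
Aspn, chr13:49544193-49544442, plus strand: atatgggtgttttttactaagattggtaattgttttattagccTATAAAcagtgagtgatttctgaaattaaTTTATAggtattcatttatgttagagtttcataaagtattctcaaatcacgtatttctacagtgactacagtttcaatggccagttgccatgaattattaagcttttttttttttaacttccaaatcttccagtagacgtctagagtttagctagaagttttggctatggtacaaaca
Bgn, chrX:73483351-73483600, plus strand: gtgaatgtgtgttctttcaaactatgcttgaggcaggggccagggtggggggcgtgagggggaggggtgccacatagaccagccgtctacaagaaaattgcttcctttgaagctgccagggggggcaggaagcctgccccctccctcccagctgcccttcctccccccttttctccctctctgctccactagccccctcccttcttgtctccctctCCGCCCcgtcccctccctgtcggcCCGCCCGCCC
The motifs searched were the TATA box (TATAAA), the AP-1 site (TGANTCA), the GC box (GGGCGG) and the core of the interferon-stimulated response element (GAAA, any 2 bases and GAAA). The share of the 32851 windows of the same length that held each was 12.4%, 6.75%, 32.7% and 2.98%. The Bgn window was 64.4% G and C and held 3 GC box matches, at −34, −10 and −6 from the start. The Aspn window was 30.0% G and C and held 2 TATAAA matches, at −207 and −178. The Fmod window, 51.2% G and C, held none of the 4 motifs. A match is a description of letters and not evidence of a bound factor.

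Mgp was measured first for the group it was chosen on. In the 3 controls Mgp stood at 2.95, 4.83 and 3.39 log2 RPKM (S1, S2, S3; mean 3.73 ± 0.98 SD). With AngII + ldCil it stood at 6.69, 5.83, 6.78 and 6.16 (S13 to S16; mean 6.36 ± 0.45 SD). Each of these 4 libraries was above each control. The difference of the means was 2.64 log2 units, which is 6.23-fold, with a standard error of 0.67, given without a test. The 4 libraries with both agents also had the smallest spread of Mgp among the groups.

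Mgp with AngII alone was 4.39, 6.61, 6.06 and 6.51 log2 RPKM (S5 to S8; mean 5.89 ± 1.03 SD), and 3 of these 4 libraries were above every control while S5 was below S2. The difference from control was 2.17 log2 units (standard error 0.67, adjusted p = 0.78), and it passed unadjusted p under 0.05 with limma (0.006). A 2-sided exact permutation test of the same libraries gave p = 0.086, where the smallest value possible is 0.029. With ldCil alone Mgp was 4.61, 4.62, 7.33 and 6.19 (S9 to S12; mean 5.69 ± 1.32 SD). The 2 lower libraries, S9 and S10, were below S2 and the 2 higher ones were above every control. This difference was 1.96 log2 units (standard error 0.67, limma p = 0.011, adjusted p = 0.97), and the exact permutation p was 0.17. It no longer passed unadjusted p under 0.05 without S1 (1.57). The control libraries enter both comparisons as well as the choice of Mgp, so neither is independent of that choice. Between AngII + ldCil and AngII alone the mean of Mgp differed by 0.47 log2 units and the libraries overlapped, and the AngII by ldCil interaction was −1.49, both given as descriptions. The difference of 0.47 became −0.028 without S5 and 0.039 without S5 and S16.

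Decorin, a chondroitin or dermatan sulphate proteoglycan that binds collagen I fibrils and TGF-β, ran the other way. Dcn was 8.62, 7.20 and 8.88 log2 RPKM in the controls (mean 8.24 ± 0.90 SD) and 6.75, 6.49, 5.54 and 3.53 with AngII + ldCil (mean 5.58 ± 1.46 SD). The groups did not overlap. The difference was −2.66 log2 units, 0.159 of the control level (standard error 1.08, limma p = 0.027, adjusted p = 0.85, exact permutation p = 0.057). Without S16, which had the lowest Dcn of all libraries, the difference was −1.98 and no longer passed unadjusted p under 0.05. The call was also lost without S1 (−2.47) and without S3 (−2.33).

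With AngII alone Dcn was 8.03, 5.15, 5.25 and 6.34 log2 RPKM (mean 6.19 ± 1.34 SD). S5 was within the control range and the other 3 were below it, and the difference was −2.04 (standard error 1.08, limma p = 0.078, exact permutation p = 0.11). Without S5 it was −2.65 and passed unadjusted p under 0.05. With ldCil alone the libraries split into a pair at 8.87 and 8.92 (S9, S10) and a pair at 4.86 and 5.13 (S11, S12). The mean difference from control was −1.29 (standard error 1.08, limma p = 0.25, exact permutation p = 0.40).

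Biglycan, which is close to decorin in sequence and also carries chondroitin or dermatan sulphate chains, had the smallest range of the members, 2.59-fold. Bgn was 9.59, 9.73 and 9.59 log2 RPKM in the controls, 8.43, 9.37, 9.38 and 9.76 with AngII, 9.69, 9.66, 9.17 and 9.46 with ldCil, and 9.80, 9.57, 9.19 and 8.61 with both. The group means were 9.64 ± 0.08, 9.23 ± 0.57, 9.49 ± 0.24 and 9.29 ± 0.52 (SD), and S5 and S16 lay lowest. None of the differences from control, between −0.40 and −0.14, passed p under 0.05 with limma.

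Asporin, a relative of decorin that lacks the glycosaminoglycan attachment site and binds TGF-β and BMP-2, had low levels and moved in the direction of Mgp. Aspn was −0.43, 0.04 and −2.04 log2 RPKM in the controls (mean −0.81 ± 1.09 SD) and −0.58, 2.52, 2.11 and 1.86 with AngII (mean 1.48 ± 1.40 SD). S5 was within the control range and the other 3 AngII libraries were above it. The difference was 2.29 log2 units (standard error 0.84, limma p = 0.016, adjusted p = 0.78, exact permutation p = 0.11). Without S3, which had the lowest Aspn of all, it was 1.67 and did not pass. The control mean of Aspn was below the filter of 0, which Aspn passed through its treated groups. Its comparisons with control are therefore not independent of the filter.

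Aspn with AngII + ldCil was 0.68, 0.39, 2.38 and 0.33 (mean 0.95 ± 0.97 SD), each above every control. Here the difference was 1.76 (standard error 0.84, limma p = 0.054, adjusted p = 0.85), and the exact permutation p, 0.029, was the smallest that 3 against 4 libraries can give. Because of the filter, nothing is read from this p. With ldCil alone Aspn was 0.19, −1.06, 1.52 and 1.89 (mean 0.64 ± 1.34 SD) and overlapped the controls (1.45, limma p = 0.11, exact permutation p = 0.20).

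Fibromodulin, a keratan sulphate proteoglycan that binds collagen I at a site shared with lumican, resembled asporin. Fmod was 2.02, 3.54 and 2.16 log2 RPKM in the controls (mean 2.57 ± 0.84 SD). It was 2.20, 4.71, 4.69 and 4.67 with AngII (mean 4.07 ± 1.24 SD), so that 3 AngII libraries lay together above every control and S5 lay within the control range. The difference was 1.49 log2 units (standard error 0.67, limma p = 0.043, adjusted p = 0.78, exact permutation p = 0.17). This call was lost on leaving out any of 8 single libraries: S1, S3, S6, S7, S8, S13, S14 or S16.

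With AngII + ldCil Fmod was 3.63, 3.67, 4.29 and 3.80 (mean 3.85 ± 0.30 SD), each above every control, although S13 and S14 lay close to S2. The difference was 1.27 (standard error 0.67, limma p = 0.078, exact permutation p = 0.029). With ldCil alone it was 2.10, 2.49, 3.65 and 4.86 (mean 3.28 ± 1.24 SD), again split between S9 and S10 on one side and S11 and S12 on the other (0.70, limma p = 0.31, exact permutation p = 0.43).

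Lumican, the keratan sulphate proteoglycan best known from the cornea, showed no difference past the spread. Lum was 3.89, 3.98 and 3.99 log2 RPKM in the controls, 3.29, 3.15, 2.75 and 4.65 with AngII, 4.92, 4.61, 3.44 and 2.83 with ldCil, and 4.38, 3.85, 4.34 and 3.46 with both. The 3 controls lay together, while the treated groups spread on both sides of them. The differences from control were −0.50, 0.00 and 0.05, each with a limma p of at least 0.32.

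Prolargin, which anchors basement membranes to the underlying connective tissue, was 5.89, 6.76 and 5.86 log2 RPKM in the controls and 4.81, 6.72, 6.85 and 7.34 with AngII. It was 5.91, 5.98, 6.02 and 6.96 with ldCil, and 6.67, 6.54, 6.60 and 4.27 with both. S16 and S5 were the 2 lowest of all 15. The differences from control were 0.26, 0.05 and −0.15, with limma p of at least 0.68. Without S5 and S16 together, a choice made after seeing the data, the AngII difference of Prelp was 0.80 (standard error 0.29, adjusted p = 0.33) and passed unadjusted p under 0.05.

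Osteoglycin, named for its isolation from bone and also found in the walls of vessels and in myocardium, was 4.15, 4.77 and 3.81 log2 RPKM in the controls and 3.81, 4.60, 5.06 and 4.60 with AngII. It was 4.06, 4.01, 3.90 and 5.10 with ldCil, and 4.51, 4.63, 4.78 and 2.66 with both. S16 was the lowest of all 15. The differences from control were 0.27, 0.03 and −0.10 log2 units, with limma p of at least 0.57.

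Counted together, 3 of the 8 members (Mgp, Aspn and Fmod) were higher with AngII than in control at unadjusted p under 0.05, where 3.41% of all genes tested were, and 0 were lower (2.63%; 6.04% in either direction). With ldCil 1 member, Mgp, was higher (1.46% of all genes) and 0 were lower (0.49%), where 1.95% passed in either direction. With AngII + ldCil, 1 of the 7 members with a test was lower (Dcn; 2.92% of all genes) and 0 were higher (2.7%), where 5.62% passed in either direction. In that comparison 3 members, Mgp, Fmod and Aspn, were above control without overlap (7.35% of all genes) and Dcn was below without overlap (6.11%). Mgp was chosen on that difference, and nothing is read from its place in this count. The counts for AngII and for ldCil use the same control libraries, so nothing is read from the place of Mgp there either. Aspn passed the filter through its treated groups, so nothing is read from its place in these counts. No member differed without overlap in AngII against control (5.06% of all genes higher, 3.68% lower) or in ldCil against control (3.5% higher, 3.37% lower). Without S5 and S16 together 5 members passed with AngII, Dcn being lower and Prelp higher beside the 3 named. With a component score of all genes tested in the fit 1 did, Mgp. The share of all genes that passed in these 2 fits is not given, so nothing is read from these 2 counts. All these comparisons share the control libraries. The median log2 fold change of the members was 0.27, 0.04 and −0.02 for AngII, ldCil and AngII + ldCil against control, beside 0.02, 0.00 and 0.05 over all genes tested. No gene of the 12848 passed an adjusted p of 0.05 in any comparison with limma, where 776, 251 and 722 passed an unadjusted p of 0.05 in the 3 comparisons with control.

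Adding ldCil to AngII did not move the members past the spread between libraries. Of the 7 members with a test, 0 passed unadjusted p under 0.05 for AngII + ldCil against AngII (2.58% of all genes, 1.61% higher and 0.965% lower) and 0 for the AngII by ldCil interaction (3.86%, 1.84% higher and 2.02% lower). The libraries of AngII + ldCil and AngII overlapped for every member (0.965% of all genes were higher and 0.584% lower without overlap). The differences between AngII + ldCil and AngII were −0.62 for Dcn (standard error 1.00), 0.54 for Lum (0.44), −0.53 for Aspn (0.78), −0.41 for Prelp (0.56), −0.37 for Ogn (0.43), −0.22 for Fmod (0.62) and 0.06 for Bgn (0.27). The sign of the Dcn difference turned without S16 (0.065), without S5 and S16 (0.68) and with library weights (1.12). The interaction with the lowest p was that of Aspn, −1.98 (standard error 1.14, adjusted p = 0.96). With these standard errors the comparison does not show that the members are alike in the 2 groups. The median over the members was −0.29 for AngII + ldCil against AngII and −0.42 for the interaction, beside 0.01 and 0.02 over all genes.

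The levels of 4 members followed the first principal component of the libraries. Over the 15 libraries Pearson's r with the component score was 0.92 for Dcn, −0.91 for Fmod, −0.89 for Aspn and −0.85 for Mgp. For Lum it was 0.51, for Prelp −0.37, for Ogn −0.32 and for Bgn 0.16. These are descriptions over libraries that share treatment groups and a normalisation, and no p is attached. In the 5 libraries with the highest scores Dcn was between 8.03 and 8.92, and in the 5 with the lowest scores it was between 4.86 and 5.54. Fmod was between 2.02 and 2.49 in the former and between 3.65 and 4.86 in the latter. Each set of 5 holds libraries of more than 1 treatment, and the AngII library S5 lay with S1, S3, S9 and S10 in Dcn and Fmod and apart from the other 3 AngII libraries.

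**Figure D2:**
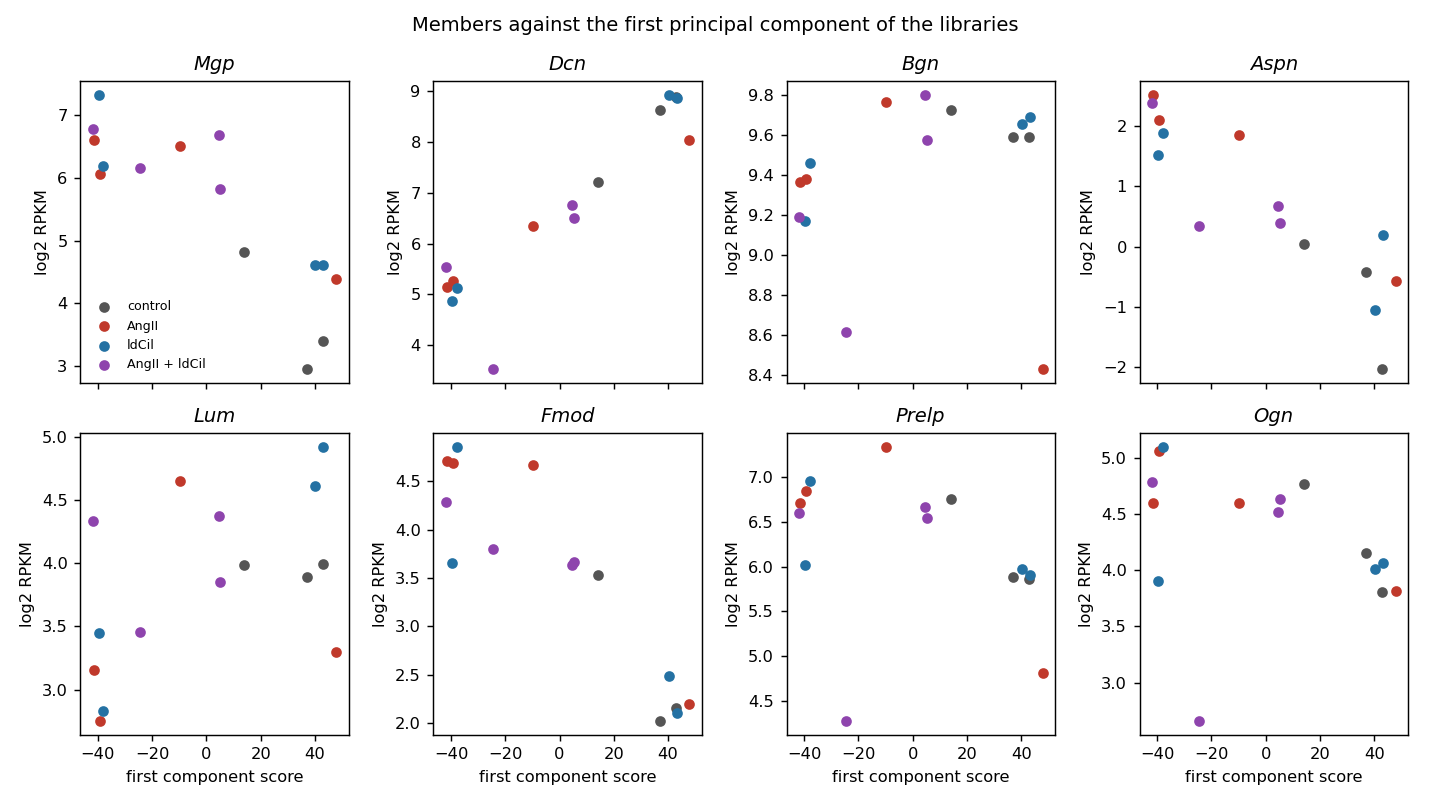
Log2 RPKM of each member (vertical, scales differ) against the library's score on the first principal component of the other 12840 genes tested (horizontal), 1 point a library, coloured by treatment. Dcn climbs along the score and Mgp, Aspn and Fmod descend (r of 0.92, −0.85, −0.89 and −0.91), while the points of Bgn show little slope (r of 0.16).

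Among the 5 libraries with the highest scores, Mgp was 2.95 and 3.39 in the controls S1 and S3, 4.39 in the AngII library S5 and 4.61 and 4.62 in the ldCil libraries S9 and S10. The third control, S2, scored 14.01 and had an Mgp of 4.83, above S5, S9 and S10. The score used in the model was computed anew from all 12848 genes tested, members included. With the component score added to the model, Mgp differed by 1.16 log2 units between AngII and control (standard error 0.40, adjusted p = 0.68) and by 1.25 between ldCil and control (standard error 0.38, adjusted p = 1.00), and both passed unadjusted p under 0.05. For AngII + ldCil against control it was 1.55, as a description. The control libraries entered the choice of Mgp, so nothing is read from its tests in this fit. The share of all genes that passed in this fit is not given. The other 3 members that followed the score changed more. In the same fit Dcn differed by −0.29, −0.05 and −0.76 for AngII, ldCil and both against control. The AngII difference became 0.43 for Fmod (standard error 0.34) and 1.01 for Aspn (standard error 0.49). None of these passed unadjusted p under 0.05. Of the variance of the score without the members, 23.5% lies between treatments. A score in the model therefore also takes up part of any treatment difference, and the 2 cannot be fully told apart.

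**Figure D3:**
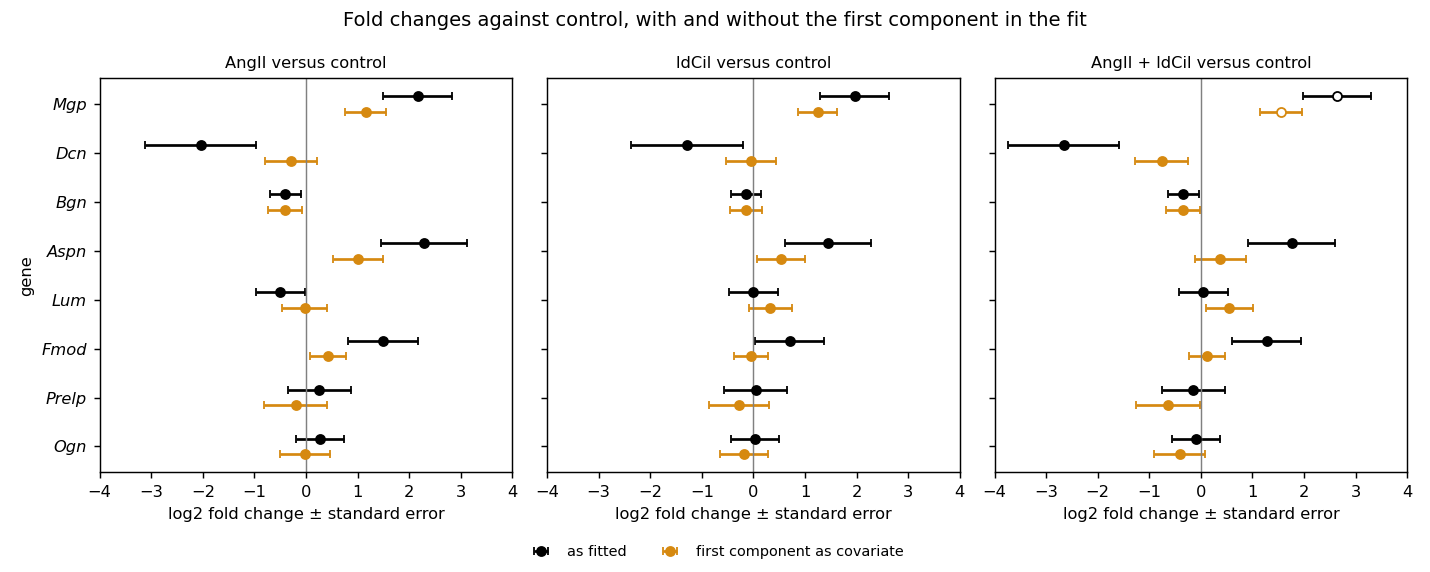
Log2 fold change against control ± standard error for each member (horizontal axis) with AngII, ldCil and both, from the fit of 1 mean per group (black) and with the first component score as a covariate (orange). This score was computed from all 12848 genes tested, members included. Hollow symbols mark Mgp with both agents, which is a description. With the covariate the differences of Dcn move from −2.04, −1.29 and −2.66 to −0.29, −0.05 and −0.76, and those of Mgp from 2.17, 1.96 and 2.64 to 1.16, 1.25 and 1.55.

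Several pairs of members varied together over the 15 libraries. Fmod and Aspn had an r of 0.88, Mgp and Fmod 0.82, and Mgp and Aspn 0.82. Dcn ran against them, with r of −0.83 with Fmod, −0.82 with Mgp and −0.75 with Aspn. Without S5 and S16 those 6 values were 0.88, 0.81, 0.83, −0.91, −0.87 and −0.89. Prelp and Ogn, which lie on different chromosomes, had an r of 0.91, and 0.85 without S5 and S16. Bgn and Prelp had an r of 0.73, which fell to 0.07 without these libraries. The neighbours Dcn and Lum had an r of 0.56, Aspn and Ogn 0.53, and Prelp and Fmod 0.58. Without S5 and S16 these 3 values rose to 0.65, 0.68 and 0.88. Pairs on different chromosomes moved as well. Fmod and Ogn went from 0.52 to 0.81, Mgp and Prelp from 0.35 to 0.60, and Dcn and Ogn from −0.035 to −0.64. Leaving out S5 and S16 was chosen after seeing the data.

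**Figure D4:**
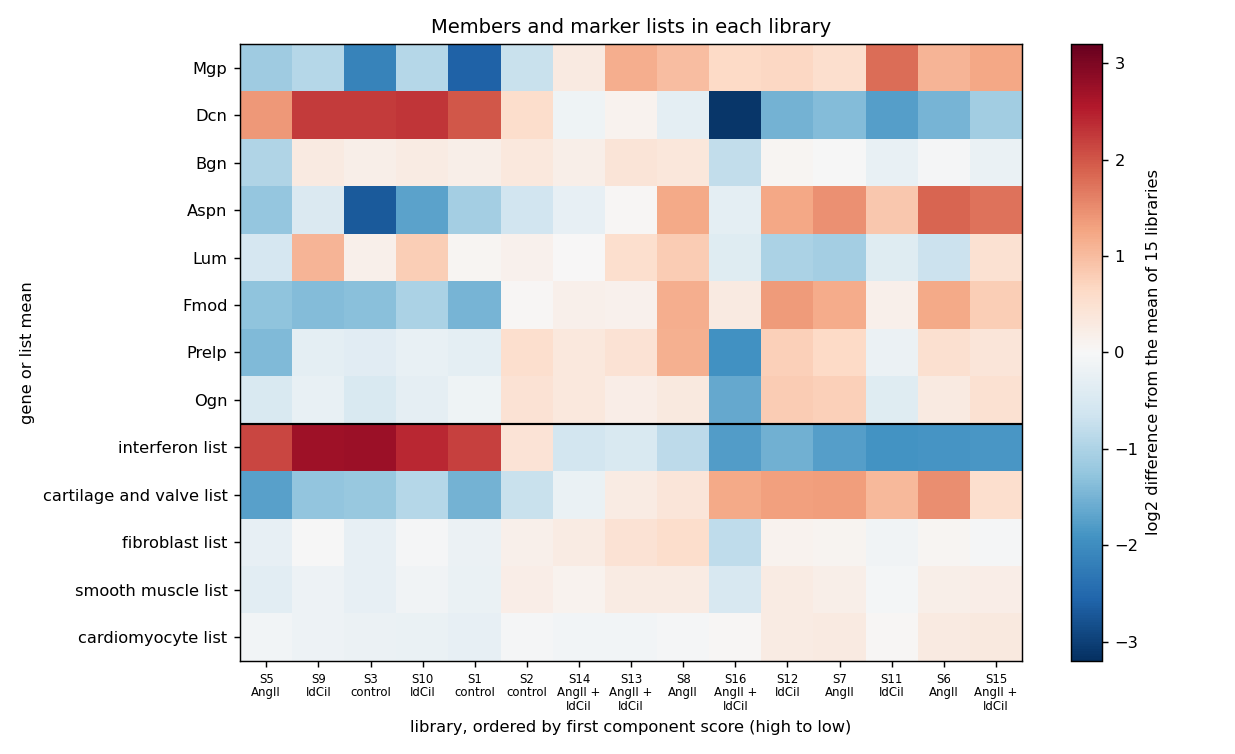
Difference of each member (upper 8 rows) and of the mean of 5 marker lists (lower rows) from its average over the 15 libraries, in log2 units, with the libraries ordered from the highest to the lowest first component score. Dcn and the interferon list are high on the left and low on the right, Mgp, Aspn, Fmod and the cartilage and valve list do the reverse, and the S16 column is low for Dcn, Prelp, Ogn and the fibroblast list.

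The genes most like Mgp over the 15 libraries were Col15a1, a basement membrane collagen (r = 0.98), Col6a3, a chain of microfibrillar collagen VI (0.93), Ptn, the heparin-binding growth factor pleiotrophin (0.92), Edc4, a scaffold of mRNA decapping (0.92), and Speg, a striated muscle kinase (0.90). The r of deviations from the group means was between 0.86 and 0.96 for these 5 genes. The genes most like Dcn were Ifitm3, an interferon-induced membrane protein (0.99), Lgals3bp, a secreted galectin-binding glycoprotein (0.99), and Ifi203, an interferon-inducible nuclear protein (0.99). These genes were taken as the highest of all genes tested, and the values are descriptions.

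Other members of the proteoglycan family were sparse. Of 10 further genes listed, Podn, Tsku and Ecm2 have a row. Podn, a class V member, had a mean log2 RPKM of 4.33 and differed from control by 1.35, 0.99 and 0.80 with AngII, ldCil and both. Tsku, tsukushi, a secreted modulator of BMP and Wnt signalling, had a mean of 4.20 and differed by −0.82, −0.50 and −1.02, and the last of these passed unadjusted p under 0.05. With both agents 2.92% of all genes were lower at that threshold. Ecm2, the neighbour of Aspn, had a mean of 0.34 and differed by 0.72, 0.72 and 0.69, none of which passed.

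The genes on which Mgp function and mineral balance depend included some that passed. Of 19 listed, 17 were tested. At unadjusted p under 0.05, 2 were higher with AngII (3.41% of all genes) and 1 with ldCil (1.46%). Enpp1, which makes the calcification inhibitor pyrophosphate outside the cell, differed by 0.71 with AngII and by 0.72 with ldCil. Ank, which brings pyrophosphate out of the cell, differed by 0.53 with AngII. With AngII + ldCil, Alpl, the phosphatase that removes pyrophosphate, differed by −1.28 and was the single gene of the list that passed (2.92% of all genes were lower). The median differences of the list were 0.13, 0.22 and 0.13, beside 0.02, 0.00 and 0.05 over all genes. Its highest levels were those of Gas6, another vitamin K-dependent protein (7.09), the proprotein convertase Furin (6.91) and the phosphate transporter Slc20a2 (6.34).

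The enzymes that build glycosaminoglycan chains included 2 genes that passed. Of 31 genes listed 29 were tested, and 0 passed unadjusted p under 0.05 with AngII (6.04% of all genes) or with ldCil (1.95%). With AngII + ldCil 2 were lower (2.92% of all genes): Chst11, a chondroitin 4-O-sulphotransferase (−1.25), and Ugdh, which makes the UDP-glucuronate used in the chains (−0.64). The medians of the list were −0.05, −0.03 and −0.05. B4galt1 (6.62), Ugdh (6.03) and Chpf (5.57) had the highest levels.

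The collagens and fibre components that the proteoglycans bind included a few genes that passed. Of 19 tested, 3 were higher with AngII: Eln, elastin (2.80), Fbln1, fibulin-1 (1.31), and Col5a1, a collagen V chain that sets fibril diameter (0.57). With AngII + ldCil Fbln1 (1.41), Eln (2.56) and Col6a3 (1.95) were higher, and with ldCil Fbln1 alone (1.16). Of all genes 3.41%, 2.7% and 1.46% were higher with AngII, AngII + ldCil and ldCil. None was lower at that threshold in these 3 comparisons, where 2.63%, 2.92% and 0.49% of all genes were. The most abundant genes of the list, Fn1 (9.89), Col1a1 (9.81) and Col1a2 (9.07), were not among those that passed. The medians were 0.18, −0.03 and 0.05.

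Of 12 proteases and procollagen-processing factors that act on small leucine-rich proteoglycans or beside them, Mmp13, collagenase 3, was lower with AngII (−2.59) and with AngII + ldCil (−2.45). Pcolce2, an enhancer of procollagen processing, was higher with AngII (0.73), and Bmp1, the procollagen C-proteinase that also trims the biglycan propeptide, was lower with both agents (−0.57). The medians of the list were −0.18, −0.44 and −0.37, and its highest levels were those of Pcolce (7.38), Mmp14 (6.77) and Mmp2 (6.40). With ldCil alone 0 of the 12 passed in either direction (1.95% of all genes). Of all genes 2.63% and 2.92% were lower with AngII and AngII + ldCil, and 3.41% were higher with AngII.

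Among 15 receptors and ligands tied to decorin, biglycan or asporin, 2 were lower with AngII: Tlr2, a receptor for soluble biglycan (−1.82), and its adaptor Myd88 (−0.44). With AngII + ldCil Tlr2 (−2.33) and Tgfb1 (−0.43) were lower, and 3 genes were higher, of which Kdr, the VEGF receptor that decorin can bind, differed most (1.53). With ldCil 0 passed (1.95% of all genes). Of all genes 2.63% were lower with AngII, and 2.92% were lower and 2.7% higher with AngII + ldCil. The medians of the list were −0.16, −0.03 and −0.12.

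Markers of the cells that could carry these transcripts were set beside the members. Of 20 fibroblast genes 18 were tested, and 2 were higher with AngII (Fbln1, shared with the collagen list, and Mfap4, a microfibril protein, 1.70), 1 with ldCil and 1 with both, with 0 lower. Of all genes 3.41%, 1.46% and 2.7% were higher in these comparisons, and 2.63%, 0.49% and 2.92% were lower. The summed level of the list, as log2 of summed RPKM, was 12.3 to 12.6 in the controls, 12.1 to 12.7 with AngII, 12.3 to 12.5 with ldCil and 11.8 to 12.7 with both, the lowest value being that of S16. The groups overlapped in this summed level. The part of fibroblast number in the low Dcn, Prelp and Ogn of S16, where the mean deviation of the list was −0.81, was not tested.

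Of 10 cartilage and valve genes, Sox9, a chondrogenic transcription factor, and Acan, aggrecan, were tested, while Col2a1 and Comp were below the filter and the others have no row. Acan, with a mean of only 0.45 log2 RPKM, differed by 2.25 with AngII, 1.63 with ldCil and 2.15 with both. Of these only the AngII difference passed unadjusted p under 0.05 (3.41% of all genes were higher). The summed level of Sox9 and Acan was 1.82 to 3.00 in the controls, 1.57 to 4.22 with AngII, 2.02 to 4.20 with ldCil and 3.23 to 3.97 with both. It moved in the same direction as Mgp, Aspn and Fmod, and its part in their levels was not tested.

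The interferon list moved with Dcn. All 22 tested genes had a lower mean with AngII, with ldCil and with both than in control. At unadjusted p under 0.05, 7, 0 and 19 of them passed, where 2.63%, 0.49% and 2.92% of all genes were lower. The medians of the list were −2.34, −1.28 and −3.07. Among them Irf7, a transcription factor of the interferon response, differed by −3.75, −2.68 and −4.72. The summed level was 8.50 to 10.6 in the controls, 6.35 to 9.97 with AngII, 6.18 to 10.6 with ldCil and 6.52 to 7.52 with both. Its part in the levels of Dcn was not tested beyond the fit with the component score.

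The lists of 5 other cell types were counted in the same way. Of all genes 3.41%, 1.46% and 2.7% were higher with AngII, ldCil and both, and 2.63%, 0.49% and 2.92% were lower. Of 15 cardiomyocyte genes 1 was higher with AngII (Tnni3, cardiac troponin I, 0.58), 0 with ldCil and 1 with both (Myh7, 0.96), and their summed level lay between 14.2 and 14.4 in all 15 libraries. Of 12 smooth muscle genes tested, Tagln was higher with AngII (0.59) and with both (0.70). Of 12 endothelial genes, Kdr and Vwf (1.02) were higher with both agents. Of 12 macrophage genes, Cd14 (−3.00) and Csf1r (−0.89) were lower with both, and the mean deviation of that list was 1.05 in S5 and −1.37 in S16, the 2 libraries with the lowest Bgn and Prelp. Of 9 epicardial genes tested, Upk3b was higher (1.62) and Aldh1a2 lower (−1.66) with both. In these 5 lists no other gene passed unadjusted p under 0.05 with limma in the 3 comparisons with control.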

How the data were processed

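Poly(A)-captured RNA of 15 samples was sequenced on an Illumina NextSeq. Per the labels, reads were aligned to GRCm38 (mm10) with HISAT2 and counted with HTSeq. For tool versions, annotation release and strandedness the sources used here give nothing. The deposited values are log2 RPKM after conditional quantile normalisation by the authors, for 14337 genes. Depth per library is unknown, since no counts were used, and no counting interval can be had from these values. Trailing columns of the table hold no values (8). Identifiers were matched to GENCODE M21: 14329 matched, 12695 in the same version.

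The 12848 genes whose log2 RPKM averaged 0 or more were tested. In limma 3.58.1 (R 4.3.3) a model with the 4 group means and no covariate was fitted to the 15 libraries together, with the prior variance allowed to depend on expression (trend). Tests were 2-sided, and Benjamini-Hochberg adjustment covered every gene tested. Values were used as deposited, with no pseudocount. Single values were compared by 2-sided exact permutation tests, whose smallest p is 0.029 with 3 against 4 and with 4 against 4 libraries.

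The members, the gene lists and the tests were chosen with earlier results of these data known. Genes were named by a rule: the members, each further family gene with a row, for each list the 3 highest mean levels and up to 3 of the smallest p per comparison, and the 5 genes most correlated with Mgp and the 3 most correlated with Dcn. Of these, the text gives the genes that passed unadjusted p under 0.05 against control, with Irf7 alone of the interferon list. It also gives the highest levels of the lists of matrix genes. For AngII + ldCil against AngII, Fam20c (−0.45) and Kdr (0.98) of the lists passed, where 2.58% of all genes did. For the interaction Enpp1 (−1.02) passed, where 3.86% of all genes did. The listed symbols Wisp1 and Wisp2 were read as Ccn4 and Ccn5. Alternatives were the filter, an added constant, median centring, quantile normalisation, the groups in the fit, the moderation, library weights, the first principal component as a covariate and leaving out each library. The component used as a covariate was that of all genes tested, members included. Protein sequences were not analysed here. Start-site sequences are from RefSeq (GRCm38.p6).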

Additional observations from a re-analysis of the deposited data

Results flagged for a closer look

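In 24 groups of 4 libraries (8 members in 3 treated groups), the lowest and highest library was compared with its nearest neighbour by Dixon's criterion, which chance passes in about 1 in 20 groups. Library S5 had a low Fmod among the AngII libraries (2.20 log2 RPKM). Library S16 had a low Ogn (2.66) and a low Prelp (4.27) among the libraries with both agents. Library S12 had a high Ogn (5.10) and a high Prelp (6.96) among the ldCil libraries. Library S15 had a high Aspn (2.38) among the libraries with both agents. These are 6 values in 4 libraries, and Prelp and Ogn were marked in the same libraries.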

How the results depend on the processing

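No paired analysis was possible because the labels give the libraries no replicate numbers shared between groups. Members at unadjusted p under 0.05 numbered 3 with AngII, 1 with ldCil, 1 with AngII + ldCil (each against control), 0 for AngII + ldCil against AngII and 0 for the interaction. With library weights they numbered 7, 2, 4, 4 and 2, and limma then passed 6245, 3, 2311, 4048 and 2387 genes at adjusted p under 0.05, against 0 under each other alternative; the weights favour libraries that lie near their group mean, S1 having the highest at 7.01. With the first component as covariate they numbered 1 with AngII and 0 with AngII + ldCil, with only the groups compared 3 with AngII + ldCil (with AngII still 3, Dcn passing and Fmod not), and without S5 and S16 together, chosen after seeing the data, 5 with AngII and 1 for the interaction. Leaving out each library gave 1 to 4, 0 to 2, 0 to 3, 0 to 1 and 0 to 1. The share of all genes at unadjusted p under 0.05 is not given for any alternative. Nothing particular to the members is therefore read from these counts. The lowest counts came without S3 for AngII, without S1 for ldCil, and without S1, S3 or S16 for AngII + ldCil. Counts rose to 3 without S2, S5 or S12 and to 2 without S10 for AngII + ldCil, to 2 without S10 for ldCil, to 1 without S8 for AngII + ldCil against AngII, and to 1 without S5, S10 or S15 for the interaction.

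Mgp stayed higher than control with each agent under every alternative, and its ldCil call was lost without S1 (1.57). The control libraries entered the choice of Mgp, so nothing is read from this. Signs turned as follows. With library weights, ldCil against control became 0.66 for Lum, −0.062 for Ogn and 0.033 for Bgn, AngII + ldCil against control 0.37 for Ogn, 0.024 for Bgn and 0.56 for Prelp, and AngII + ldCil against AngII 1.12 for Dcn. With the component, AngII became −0.020 for Ogn and −0.20 for Prelp, ldCil 0.33 for Lum, −0.18 for Ogn, −0.052 for Fmod and −0.28 for Prelp, and the interaction −0.42 for Dcn. With 1 added to RPKM, Lum with ldCil became 0.013. Without S5 and S16, AngII + ldCil against control became 0.40 for Ogn and 0.44 for Prelp, and against AngII 0.68 for Dcn. Leaving out each library, Prelp with AngII ran from −0.045 to 0.80. With ldCil, Lum ran from −0.33 to 0.37, Ogn from −0.25 to 0.29 and Prelp from −0.20 to 0.34. With both agents against control, Lum ran from −0.075 to 0.23, Ogn from −0.31 to 0.40 and Prelp from −0.36 to 0.44. Against AngII, Mgp ran from −0.028 to 0.71, Dcn from −1.01 to 0.065, Ogn from −0.60 to 0.13, Bgn from −0.21 to 0.29 and Prelp from −0.95 to 0.18. The interaction ran from −0.022 to 1.35 for Dcn, −0.66 to 0.10 for Ogn, −0.065 to 0.43 for Bgn and −0.99 to 0.13 for Prelp. The cause was not tested. With the filter raised to an average log2 RPKM of 2, Aspn was not tested, which left 2 members with AngII. No filter, added constant 0.1, centring, quantile normalisation and moderation changed no call.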
